A study of Mus musculus with 12 samples.

Results

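The genes described here encode the early steps of complement, its lectin pathway, the clotting factors and the proteins that dissolve clots or limit that process. There are 35 of them, listed by gene symbol and found as rows of a table of exonic read counts with 38087 genes. Of these, 12 belong to complement activation, 17 to coagulation, 4 to fibrinolysis and 2 are fetuins, plasma glycoproteins encoded beside the kininogen genes. All 35 passed the filter on low counts, which left 14235 genes to test.

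Livers came from male C57BL/6j mice aged 13 to 16 weeks, and every animal in both groups was germ-free, so neither group carried a gut microbiota. Recombinant human growth hormone (GH) at 50 µg per mouse, or phosphate-buffered saline (PBS) in the controls, was injected subcutaneously at ZT 2 and ZT 14 on 5 days, where ZT counts hours from lights on. Livers collected at ZT 2 gave 6 GH and 6 PBS libraries of total RNA depleted of ribosomal RNA. The labels do not say whether the dose is per injection or per day, and they number the samples without saying more, so a p-value here reflects spread among these samples, which may be technical. The hormone is human and the animals are mice, in which human GH also binds the prolactin receptor.

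Complement is a cascade of plasma proteases made largely by hepatocytes. The classical pathway starts with C1 on antibody and the lectin pathway with mannose-binding lectins on microbial sugars; both cleave C4 and C2 into a C3 convertase, while factor B forms the convertase of the alternative pathway. Coagulation is a parallel protease cascade that ends in thrombin cutting fibrinogen to fibrin, and plasmin, made from plasminogen, dissolves the fibrin again.

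Library totals ran from 19523104 to 23278931 counts, and the 35 genes together took 5.11 to 5.92% of the counts in PBS and 5.12 to 6.40% in GH. GH replicate 6 was the highest, and the other GH libraries did not exceed 5.37%. GH replicate 6 and PBS replicate 5 stood apart from their groups on principal components 2 and 3 of all tested genes, and GH replicate 6 was the highest or lowest GH library in 16 and 12 of the 35 genes, respectively. The hepatocyte markers Alb, Ttr, Apoa1, Cps1, Tat and Cyp2e1 summed to 95356 to 111726 counts-per-million reads (CPM) in PBS and 76022 to 101828 CPM in GH, and 0 of the 6 passed the test. Of the 6 Kupffer cell markers and the 6 markers of sinusoidal endothelium, 0 and 0 passed. Of the 6 stellate cell markers 1 passed, the proteoglycan gene Dcn, lower in GH; the list summed to 355 to 411 CPM in PBS and 325 to 392 CPM in GH. The erythroid list, summing to 75.7 to 322 CPM in PBS and 192 to 379.9 CPM in GH, had 1 of 3 tested genes passing, Alas2, higher in GH. No marker was at 0 in all libraries, and the part of cell make-up in the results below was not tested. In such bulk samples fewer cells of a type and less RNA per cell cannot be told apart.

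GH livers held more mRNA for the proteases of the lectin pathway, for C4 of the classical pathway and for factor XI. They also held more for the fibrinolysis inhibitor Cpb2 and less for the lectin Mbl2. The row of C2 rose too, but it may hold reads of Cfb, as given below. Tested with edgeR's quasi-likelihood test with a threshold of 0.05 on the Benjamini-Hochberg adjusted p, 10 of the 35 genes rose, 1 fell and 24 did not pass. That is 31.4% of the 35, against 4.79% of all 14235 tested genes (682), of which 2.27% rose and 2.52% fell. The test calls abundant genes more often, and of the 1566 genes at least as abundant as the least abundant of the 35, 10.5% (165) were called. The median log2 fold change of the 35 (GH minus PBS, as throughout) was 0.14, against 0.00054 over all tested genes. Values of the 6 GH libraries lay wholly above the 6 PBS libraries in 8 genes and wholly below in 1, a separation found in 3.18% of all tested genes. Without GH replicate 6 and PBS replicate 5, 11 of the 35 rose and 2 fell. With libraries scaled by their totals alone, 3 rose (Masp1, F11 and Cpb2) and 1 fell (Mbl2), while C4b, C2 and Masp2 did not pass. Higher genes then made up 24.3% of all calls in place of 47.4%. The same 4 genes were the only ones of the 35 to pass with the replicate number as a block.

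**Figure D1:**
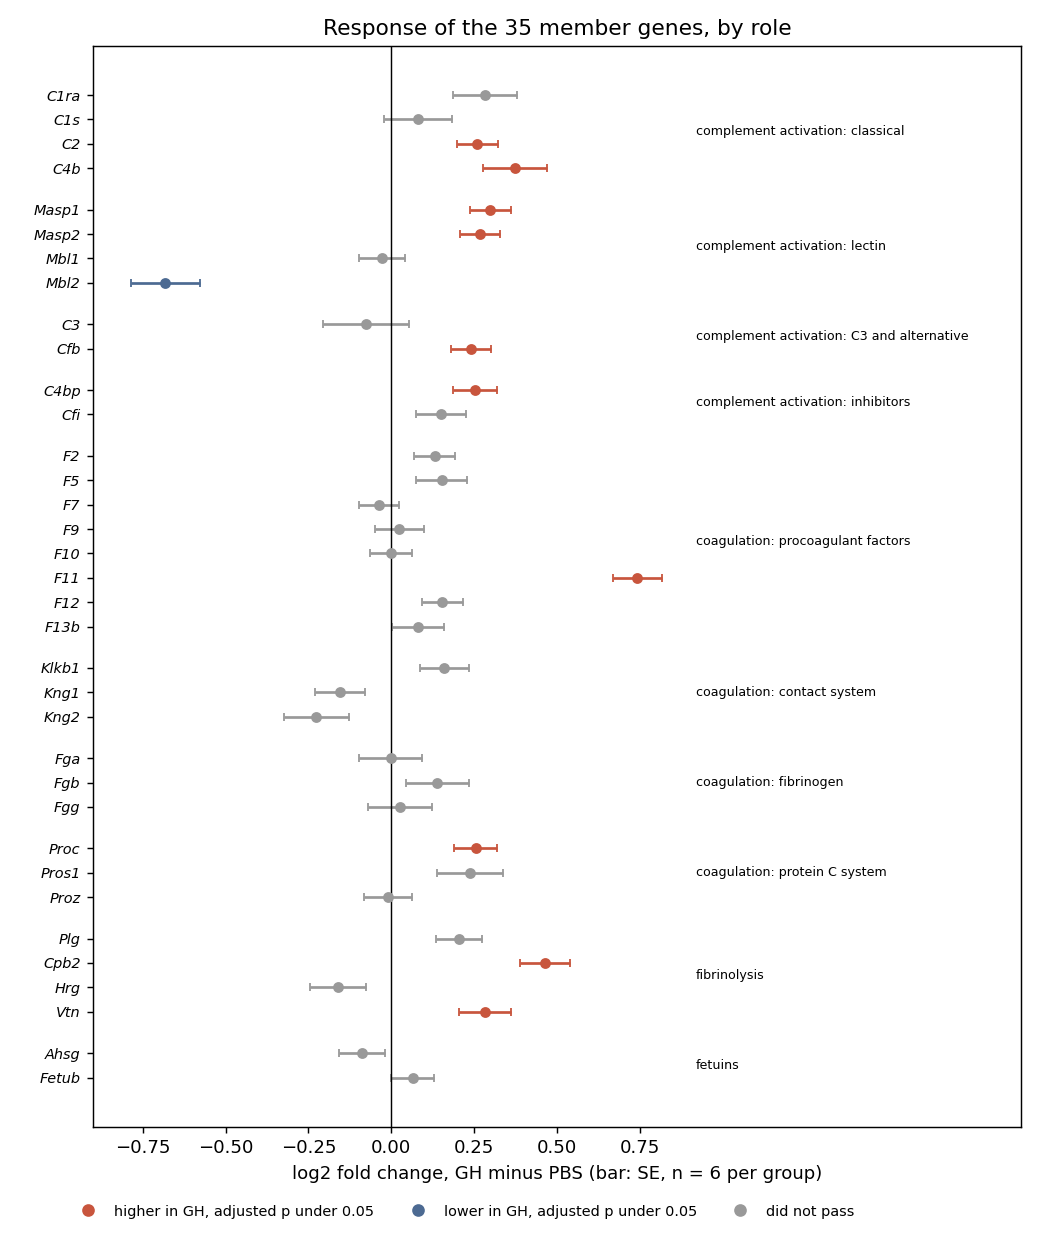
Log2 fold change (GH minus PBS) of each of the 35 genes, ordered by role, with the SE as bar (6 libraries per group) and colour for an edgeR adjusted p under 0.05. F11 stands farthest to the right at 0.74 and Mbl2 farthest to the left at -0.68. The coagulation genes other than F11 run from -0.23 (Kng2) to 0.25 (Proc).

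Complement activation held the largest number of calls: of its 12 genes 6 rose, 1 fell and 5 did not pass, with a median log2 fold change of 0.25. The share called, 58.3%, stands beside the 10.5% of genes of at least the lowest abundance here. C2 and Cfb are counted separately in it, though their rows may share reads, as given below. With 1 library left out the call count ran from 3 of 12 (without PBS replicate 6, GH replicate 2 or GH replicate 4) to 8 of 12 (without GH replicate 6), and 4 of 12 were called without GH replicate 5. It was 8 of 12 without both GH replicate 6 and PBS replicate 5, and with library totals alone it was 2 of 12, Masp1 and Mbl2.

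The classical pathway was represented by the C1 proteases and by the substrates they cut. C4b encodes C4, whose cleavage product attaches to the target surface. Its level ranged from 979 to 1316 CPM (median 1164) in PBS and from 1378 to 1946 CPM (median 1416) in GH. All GH libraries lay above all PBS libraries, and GH replicate 6 stood well above the other GH libraries. The mean rose from 1161 ± 116 to 1505 ± 219 CPM (SD, n = 6), a log2 fold change of 0.37 ± 0.10 (SE; edgeR adjusted p = 0.0340). Without GH replicate 6 the log2 fold change was 0.29 and the gene still passed, whereas it did not pass in 6 of the 12 fits that each left out 1 library, called leave-one-out fits below (adjusted p up to 0.0817, without PBS replicate 6). C4b lies at chr17:34728380-34743882 (mm10, minus strand) and has a near-identical copy, C4a, between which reads may have been split.

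C2, the protease that pairs with C4 in the convertase, ranged from 1112 to 1269.6 CPM (median 1183) in PBS and from 1373 to 1474 CPM (median 1418) in GH. The groups did not overlap, and no single library stood far from its group. C2 rose by a log2 fold change of 0.26 ± 0.06 (SE; edgeR adjusted p = 0.0222), from 1187 ± 58.3 to 1420.5 ± 39.0 CPM (SD, n = 6). It passed in 9 of the 12 leave-one-out fits, with an adjusted p of at most 0.0630, without GH replicate 2. C2 lies at chr17:34862604-34898265 (minus strand) and shares 1656 exonic bases with Gm20547, a gene model on the same strand. The counts of the 2 genes differed by at most 0.0196% in any library, so the count of C2 cannot be told apart from that of Gm20547. Gm20547 also shares 2246 exonic bases with Cfb, the neighbouring gene described below. The C2 row may therefore hold reads of Cfb, and how much of its rise belongs to C2 was not tested.

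The proteases of C1 itself did not pass. C1ra, which cuts and activates C1s, went from 185 ± 17.1 to 225 ± 31.3 CPM with a log2 fold change of 0.28 (edgeR adjusted p = 0.112). In 5 of 6 GH libraries its level was above the PBS maximum of 206 CPM, while GH replicate 6 was at 163 CPM. Without that library C1ra rose, by 0.36 on the log2 scale (adjusted p = 0.00795). C1s, which cuts C4 and C2, went from 463 ± 63.5 to 489.5 ± 54.1 CPM (log2 fold change 0.08, edgeR adjusted p = 0.731), and its groups overlapped over nearly their whole range.

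In the lectin pathway both protease genes rose and 1 of the 2 lectin genes fell. Masp1 encodes the protease that starts the lectin cascade, together with shorter and alternative products from the same locus. Its PBS libraries ranged from 77.4 to 85.1 CPM (median 82.3) and its GH libraries from 86.2 to 108 CPM (median 101). The lowest GH library, replicate 6, lay just above the highest PBS library, so the groups did not overlap. The rise from 81.5 ± 3.33 to 100.3 ± 7.72 CPM (SD, n = 6) was a log2 fold change of 0.30 ± 0.06 (SE; edgeR adjusted p = 0.0111), and it passed in all 12 leave-one-out fits. Masp1 lies at chr16:23449417-23520815 (minus strand).

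Masp2, the protease that cuts C4 and C2 in this pathway, ranged from 198 to 229 CPM (median 219.7) in PBS and from 249.8 to 272 CPM (median 263) in GH. Every GH library was above every PBS library. Its mean rose from 217 ± 13.0 to 261 ± 8.35 CPM (SD, n = 6), with a log2 fold change of 0.27 ± 0.06 (SE; edgeR adjusted p = 0.0174), and it too passed in all 12 leave-one-out fits. It lies at chr4:148602554-148615499 (plus strand), where 1817 exonic bases overlap Tardbp on the other strand. The kit was stranded, but no source used here gives whether counting used strand. Tardbp, an RNA-binding protein gene, had 58.8 CPM in PBS and 51.8 CPM in GH (edgeR adjusted p = 0.235). The within-library ratio of Masp1 to Masp2 counts was 0.376 in PBS and 0.383 in GH as geometric means, a log2 difference of 0.03 (exact permutation test, two-sided, adjusted over 9 gene pairs, p = 0.669).

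Mbl2 encodes mannose-binding lectin C, a sugar-binding protein that carries the Masp proteases. PBS libraries ran from 195 to 287 CPM (median 232), and GH libraries ran from 133 to 186 CPM (median 144). All 6 GH libraries lay below all 6 PBS libraries. The mean fell from 241 ± 35.4 to 150.2 ± 20.04 CPM (SD, n = 6), a log2 fold change of -0.68 ± 0.10 (SE; edgeR adjusted p = 0.00137), which passed in all 12 leave-one-out fits. Mbl2 lies at chr19:30232942-30239687 (plus strand). Mbl1, the gene of mannose-binding lectin A, stood at 117 ± 11.6 CPM in PBS and 115 ± 5.58 CPM in GH (log2 fold change -0.03, edgeR adjusted p = 0.883). The ratio of Mbl1 to Mbl2 counts within a library went from 0.487 to 0.767 (geometric means), a log2 difference of 0.66 with overlapping groups (two-sided exact permutation p = 0.00433, adjusted 0.00974).

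Among the genes that passed, the promoters of Mbl2 and Masp2, the lectin that fell and a protease that rose, are shown for comparison, 250 bases before to 50 after the annotated start, 5′ to 3′ on the gene's strand (RefSeq, GRCm38.p6, the assembly of mm10). Promoters were searched on both strands for TTCNNNGAA, the core bound by STAT5-type factors that GH activates, and for TTGCNNAA, a core of C/EBP-type factors of the liver. Capitals mark a match.
Masp2, chr4:148602294-148602593, plus strand: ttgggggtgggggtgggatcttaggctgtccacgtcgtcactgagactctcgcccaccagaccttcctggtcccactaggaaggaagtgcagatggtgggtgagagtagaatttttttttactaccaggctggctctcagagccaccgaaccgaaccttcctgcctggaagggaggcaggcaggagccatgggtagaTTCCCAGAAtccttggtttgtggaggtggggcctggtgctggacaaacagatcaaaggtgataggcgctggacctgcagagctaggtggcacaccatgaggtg
Mbl2, chr19:30232678-30232977, plus strand: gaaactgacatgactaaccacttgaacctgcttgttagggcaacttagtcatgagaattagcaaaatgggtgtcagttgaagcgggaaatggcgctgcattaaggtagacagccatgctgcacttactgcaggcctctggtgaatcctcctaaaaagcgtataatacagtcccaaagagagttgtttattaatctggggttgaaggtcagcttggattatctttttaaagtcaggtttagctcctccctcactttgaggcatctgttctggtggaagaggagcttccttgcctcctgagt
The Masp2 promoter held TTCCCAGAA, starting at offset -53 from the annotated start, and the Mbl2 window held neither core. Of the 26 genes of the set with a promoter in the RefSeq table, 7 held the STAT5-type core (C1ra, F9, Fga, Fgb, Masp2, Pros1 and Vtn). Of these 7, Masp2 and Vtn rose and the others did not pass. C2, C4b, Cfb, Masp1 and Proc also rose but were not among the 26, so they were not searched. The STAT5-type core occurs in 8.30% of all 32851 promoters. The C/EBP-type core was in 11 of the 26 (Ahsg, C1ra, C3, Cpb2, F11, F9, Fga, Fgb, Hrg, Klkb1 and Kng2) and in 10.8% of all promoters. These are matches of letters and not measured binding.

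C3, the protein at which all 3 complement pathways meet, did not pass. Its level ranged from 7058 to 11537 CPM (median 8514) in PBS and from 7174 to 11746 CPM (median 7958) in GH, and the groups overlapped. PBS replicate 5 and GH replicate 6 were the highest libraries of their groups, and the log2 fold change of -0.08 (edgeR adjusted p = 0.808) was -0.20 without GH replicate 6 and 0.01 without PBS replicate 5, with neither passing.

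Cfb, the gene of factor B, the protease of the alternative C3 convertase, ran from 1027 to 1152 CPM (median 1080.5) in PBS and from 1215 to 1338 CPM (median 1279) in GH, without overlap. It rose from 1081 ± 45.1 to 1278 ± 43.8 CPM (SD, n = 6), a log2 fold change of 0.24 ± 0.06 (SE; edgeR adjusted p = 0.0307). The call did not pass in 8 of the 12 leave-one-out fits (adjusted p up to 0.0837, without GH replicate 2), although its log2 fold change stayed between 0.23 and 0.26. Cfb lies at chr17:34856374-34862518 (minus strand), 0.085 kb from C2, and shares 2246 exonic bases with Gm20547. The ratio of Cfb to C2 counts, 0.911 in PBS and 0.899 in GH, did not pass (log2 difference -0.02, two-sided exact permutation adjusted p = 0.178). Since the C2 row may hold reads of Cfb, this ratio cannot show whether the 2 genes changed alike.

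Inhibitors of the C3 convertases were represented by 2 genes. C4bp encodes the C4b-binding protein, which takes apart the classical and lectin convertase. Its values ranged from 572 to 692 CPM (median 604) in PBS and from 687 to 769 CPM (median 734) in GH. In 5 of 6 GH libraries the level exceeded the PBS maximum, and GH replicate 6 lay just below it. The mean rose from 614 ± 43.2 to 732 ± 26.3 CPM (SD, n = 6), with a log2 fold change of 0.25 ± 0.07 (SE; edgeR adjusted p = 0.0351), and did not pass in 9 of the 12 leave-one-out fits (adjusted p up to 0.0904, without GH replicate 2). It lies at chr1:130634773-130661632 (minus strand). Cfi, the protease that cuts C4b and C3b with C4BP or factor H as helper, went from 745 ± 73.5 to 827 ± 42.5 CPM (log2 fold change 0.15, edgeR adjusted p = 0.295).

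**Figure D2:**
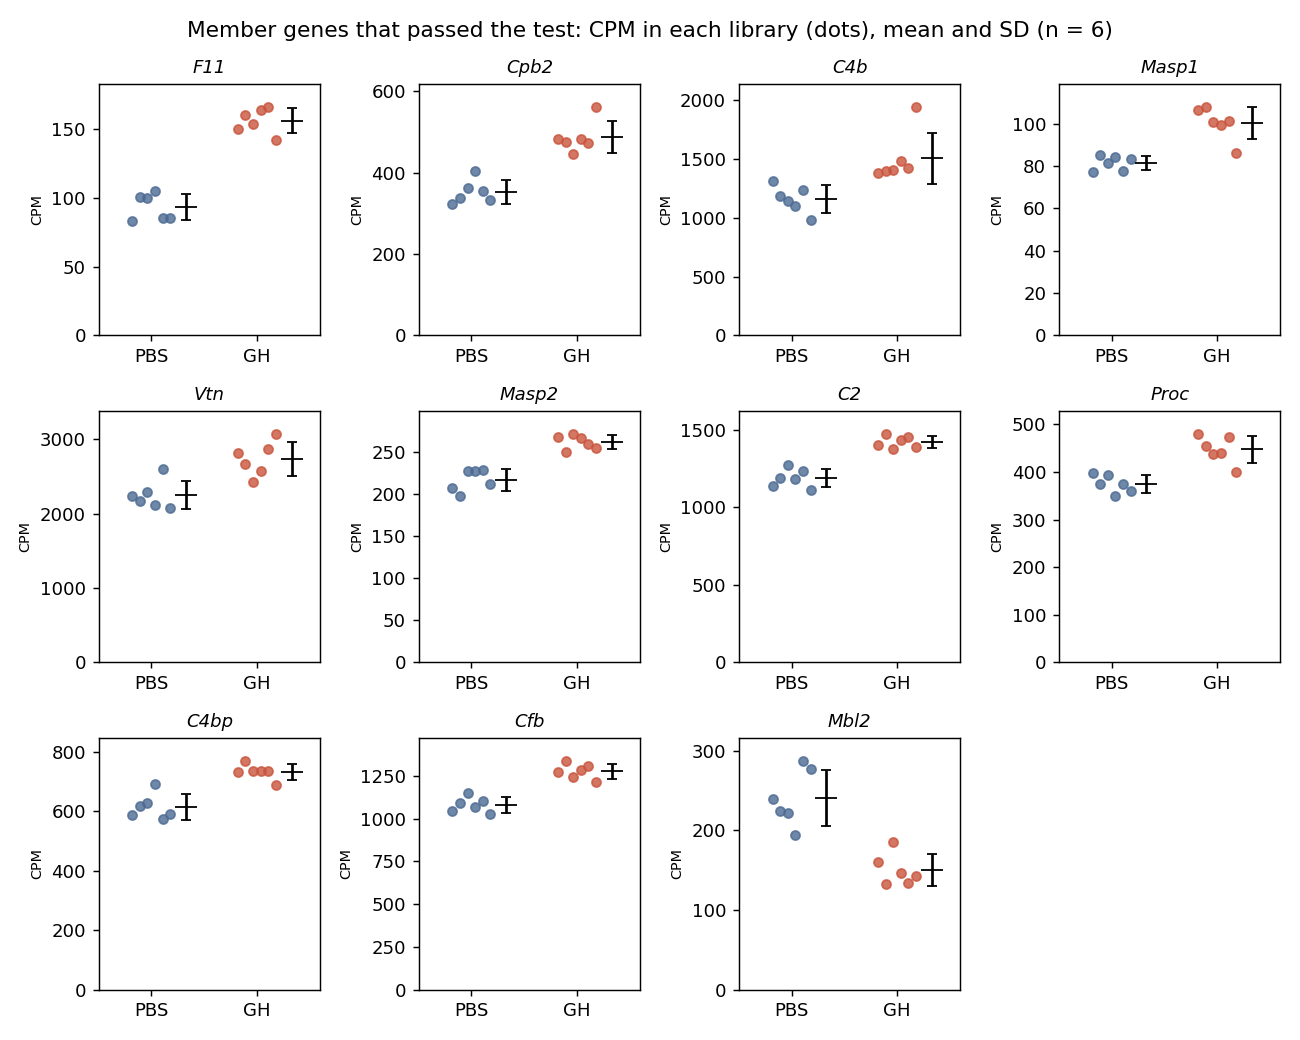
CPM (after TMM scaling, axes from 0) of the 11 genes that passed, 1 dot per library in order of replicate number within PBS and GH, with the mean and SD (n = 6) beside them. In every panel except Vtn and C4bp the 2 groups do not overlap, and in Mbl2 alone of the 11 GH lies below PBS.

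Coagulation was mostly without calls: of 17 genes 2 rose, 0 fell and 15 did not pass, with a median log2 fold change of 0.08. At 11.8% the share called was close to the 10.5% of genes of similar or higher abundance, and the count is not read as a result about the group. Leaving out GH replicate 6 and PBS replicate 5 gave 3 calls, with Kng2 added, leaving out 1 library gave 1 to 3, and library totals alone gave 1, F11. The 2 genes that rose were F11, which feeds the cascade, and Proc, which limits it.

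F11 encodes factor XI, the protease that activates factor IX. PBS libraries ran from 83.0 to 105 CPM (median 92.7), and GH libraries ran from 142 to 167 CPM (median 157). The lowest GH library was far above the highest PBS library. F11 rose by 67.4%, from 93.3 ± 9.68 to 156 ± 9.18 CPM (SD, n = 6), a log2 fold change of 0.74 ± 0.07 (SE; edgeR adjusted p = 2.23e-05), and ranked 14 among all tested genes by p. It passed in all 12 leave-one-out fits and all 8 other alternatives, with a log2 fold change between 0.68 and 0.78. The gene lies at chr8:45241174-45262031 (minus strand). Its promoter is shown as that of the largest change in the set, with the C/EBP-type core in capitals.
F11, chr8:45261982-45262281, minus strand: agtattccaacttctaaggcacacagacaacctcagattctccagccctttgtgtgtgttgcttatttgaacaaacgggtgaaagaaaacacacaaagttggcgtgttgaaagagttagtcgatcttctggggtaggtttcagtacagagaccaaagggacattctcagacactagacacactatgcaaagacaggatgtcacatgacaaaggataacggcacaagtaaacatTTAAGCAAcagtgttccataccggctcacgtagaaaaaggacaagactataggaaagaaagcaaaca
The match TTAAGCAA started at offset -17 from the annotated start. Klkb1 is the gene of plasma prekallikrein and shares its ancestry with F11. In GENCODE M21 the identifier of its row is named Gm45753, and that model spans chr8:45269671-45308466 on the same strand, 7.64 kb from F11. The RefSeq promoter of Klkb1, chr8:45294786-45295085, lies inside this span. The Klkb1 row had a log2 fold change of 0.16 (edgeR adjusted p = 0.251), from 341 ± 31.3 to 381 ± 24.6 CPM. The difference between the 2 fold changes was not tested. The Gm45753 model shares 313 exonic bases on the same strand with Cyp4v3, a fatty acid hydroxylase gene. Cyp4v3 rose from 698 to 1051 CPM (log2 fold change 0.59, edgeR adjusted p = 7.72e-04).

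The other procoagulant factors did not pass, and the least abundant of the set by counts, F7, still had a mean of 1727 counts per PBS library. F12, the contact factor that activates factor XI, went from 419 ± 13.3 to 467 ± 27.1 CPM (log2 fold change 0.15, edgeR adjusted p = 0.183) and passed with DESeq2 (adjusted p = 0.0414). F9, the target of factor XI, was at 237 ± 21.8 and 241 ± 16.6 CPM (log2 fold change 0.02, edgeR adjusted p = 0.906). Prothrombin (F2) and its cofactor factor V (F5) had log2 fold changes of 0.13 and 0.15 (edgeR adjusted p = 0.265 and 0.301).
F10, whose product cuts prothrombin, had 411 ± 23.8 CPM in PBS and 411 ± 20.1 CPM in GH, a log2 fold change of -8.9e-05 ± 0.06 (SE). F7, which starts the tissue factor pathway, had one of -0.04 ± 0.06, and F13b, the carrier chain of the fibrin cross-linking enzyme, one of 0.08 ± 0.08. F7, F10 and Proz lie in a row on chromosome 8, with gaps of 1.498 and 4.24 kb, and 0 of the 3 passed.

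The kininogen genes encode the cofactor of prekallikrein and source of bradykinin. Kng1 was at 2693 ± 134 CPM in PBS and 2419 ± 230.1 in GH, with a log2 fold change of -0.15 (edgeR adjusted p = 0.276) and 5 of 6 GH libraries below the PBS minimum. Kng2 was at 333 ± 27.8 and 285 ± 47.4 CPM, with a log2 fold change of -0.23 (adjusted p = 0.217). GH replicate 6 was the highest GH library for Kng2, and without it the gene fell by 0.32 on the log2 scale (edgeR adjusted p = 0.0207). The 2 genes are near-identical copies, between which reads may have been split. Their ratio, 8.10 in PBS and 8.56 in GH, did not pass (two-sided exact permutation adjusted p = 0.178), but passed without GH replicate 6 (log2 difference 0.12, adjusted p = 0.0156).

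Fibrinogen, the most abundant clotting protein, is built from equal numbers of alpha, beta and gamma chains encoded by Fga, Fgb and Fgg, which lie in a row on chromosome 3 with gaps of 11.03 and 6.51 kb. None of the 3 genes passed, with log2 fold changes of -0.0018 for Fga, 0.14 for Fgb and 0.03 for Fgg (edgeR adjusted p = 0.996, 0.474 and 0.922). Their levels varied together: GH replicate 6 was the highest GH library for all 3, at 8366, 8522 and 6029 CPM, and PBS replicate 2 the highest PBS library. Ratios within a library do not depend on the scaling between libraries. The ratio of Fga to Fgb counts was 1.103 in PBS and 1.002 in GH, a log2 difference of -0.14, and the log2 ratios ran from 0.07 to 0.19 in PBS and from -0.03 to 0.03 in GH without overlap. The ratio of Fgb to Fgg counts went from 1.29 to 1.39, a log2 difference of 0.11, also without overlap. Both had a two-sided exact permutation p of 0.00216, the smallest that 924 assignments allow, and 0.00649 after adjustment over 9 pairs. Fga to Fgg did not pass (log2 difference -0.03, adjusted p = 0.0857), except without GH replicate 5 (log2 difference -0.03, adjusted p = 0.0351). Fgb counts thus rose relative to those of both other chains, while no chain passed on its own.

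**Figure D3:**
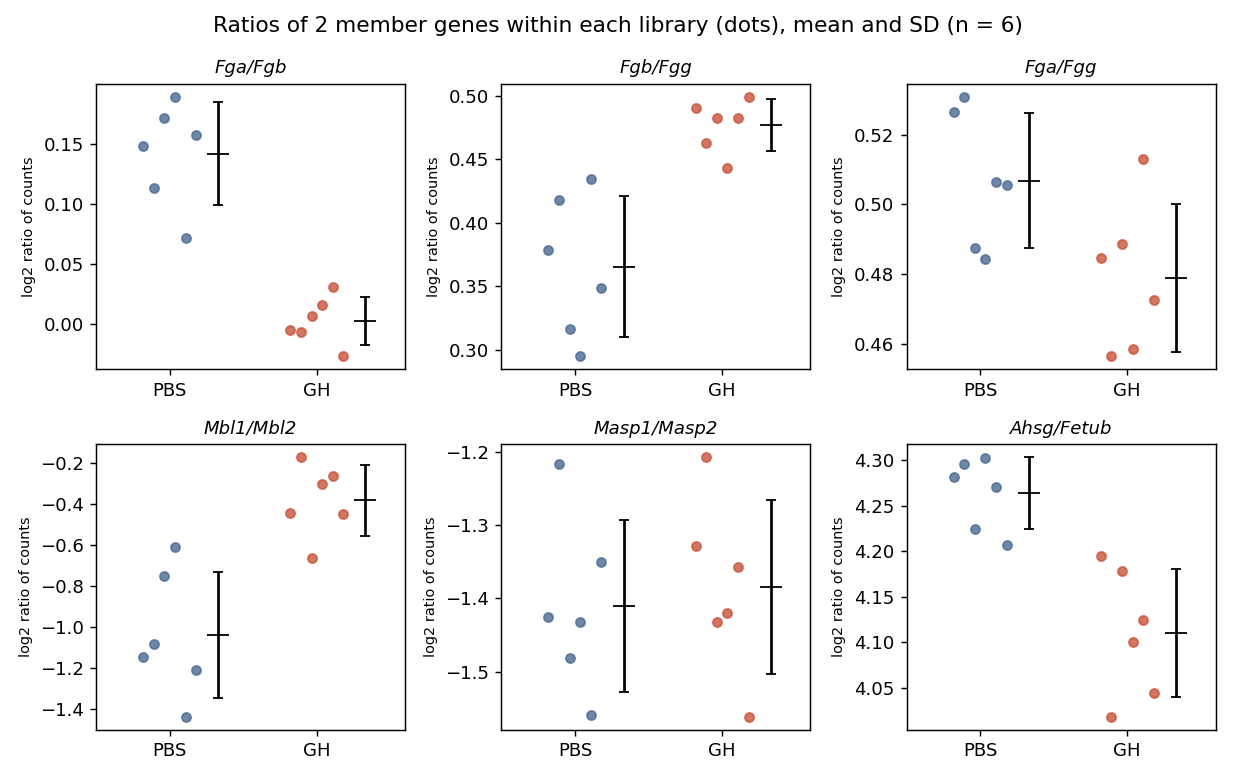
Log2 ratio of the counts of 2 genes within each library (dots) for 6 of the 9 pairs, with the mean and SD (n = 6); the axes do not start at 0. PBS and GH do not overlap for Fga/Fgb, Fgb/Fgg and Ahsg/Fetub, whereas Masp1/Masp2 covers the same range in both.

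Protein C, encoded by Proc, is the vitamin K-dependent protease that inactivates factors V and VIII. Its libraries ranged from 349.6 to 398 CPM (median 375) in PBS and from 400.5 to 480.4 CPM (median 447) in GH. All GH libraries were above all PBS libraries, GH replicate 6 only narrowly. Proc rose from 375 ± 18.8 to 448 ± 28.6 CPM (SD, n = 6), a log2 fold change of 0.25 ± 0.07 (SE; edgeR adjusted p = 0.0335), and did not pass in 8 of the 12 leave-one-out fits (adjusted p up to 0.0875, without GH replicate 1). It lies at chr18:32123126-32139570 (minus strand). Its cofactor protein S, Pros1, went from 89.4 ± 12.0 to 105 ± 15.1 CPM (log2 fold change 0.24, edgeR adjusted p = 0.204), and the highest library was GH replicate 6 at 135 CPM. Proz, the cofactor of an inhibitor of factor Xa, was at 306 ± 15.9 and 304 ± 29.2 CPM (log2 fold change -0.01, edgeR adjusted p = 0.960).

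In fibrinolysis 2 of 4 genes rose and 2 did not pass, beside 4.79% of all tested genes called and 10.5% of those at least as abundant as the least abundant of the set. The call count was 1 to 2 of 4 with 1 library left out, 2 of 4 without both GH replicate 6 and PBS replicate 5, and 1 of 4, Cpb2, with library totals alone. Cpb2 encodes the carboxypeptidase known as thrombin-activatable fibrinolysis inhibitor, which trims the fibrin ends that plasminogen binds. PBS libraries ran from 323 to 404 CPM (median 347), GH libraries from 446 to 562 CPM (median 479), and the groups did not overlap. GH replicate 6 was the highest. Cpb2 rose by 37.9%, from 353 ± 29.0 to 487 ± 39.5 CPM (SD, n = 6), a log2 fold change of 0.46 ± 0.07 (SE; edgeR adjusted p = 0.00182), which was 0.42 without GH replicate 6 and passed in all 12 leave-one-out fits. Cpb2 lies at chr14:75242287-75283555 (plus strand).

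Vtn encodes vitronectin, an adhesive plasma protein that stabilises the plasminogen activator inhibitor PAI-1. Its levels ranged from 2071 to 2596 CPM (median 2203) in PBS and from 2429 to 3073 CPM (median 2734) in GH. Of the 6 GH libraries 4 were above the PBS maximum, which was PBS replicate 5. The rise from 2246 ± 189 to 2734 ± 229 CPM (SD, n = 6), a log2 fold change of 0.28 ± 0.08 (SE), was just past the threshold (edgeR adjusted p = 0.0473) and did not pass in 10 of the 12 leave-one-out fits (adjusted p up to 0.113, without PBS replicate 6). Vtn lies at chr11:78499091-78502324 (plus strand). The promoters of both genes that rose are given with the C/EBP-type core of Cpb2 and the STAT5-type core of Vtn in capitals.
Cpb2, chr14:75242037-75242336, plus strand: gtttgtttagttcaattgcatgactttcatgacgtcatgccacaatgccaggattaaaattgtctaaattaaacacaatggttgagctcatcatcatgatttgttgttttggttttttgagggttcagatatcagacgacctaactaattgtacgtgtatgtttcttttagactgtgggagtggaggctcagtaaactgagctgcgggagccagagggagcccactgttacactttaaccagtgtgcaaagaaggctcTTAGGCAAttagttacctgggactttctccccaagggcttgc
Vtn, chr11:78498870-78499169, plus strand: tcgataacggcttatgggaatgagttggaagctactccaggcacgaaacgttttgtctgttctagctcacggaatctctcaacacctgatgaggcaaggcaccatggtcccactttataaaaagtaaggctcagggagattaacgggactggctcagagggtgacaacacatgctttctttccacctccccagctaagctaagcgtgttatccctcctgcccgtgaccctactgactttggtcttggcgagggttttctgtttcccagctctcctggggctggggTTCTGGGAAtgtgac
The match in Cpb2, TTAGGCAA, started at offset 8 and that in Vtn, TTCTGGGAA, at offset 35 from the annotated start.

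Plg, the gene of plasminogen itself, went from 2131 ± 113 to 2455 ± 175 CPM (log2 fold change 0.20, edgeR adjusted p = 0.112), with 5 of 6 GH libraries above the PBS maximum, and it passed with DESeq2 (adjusted p = 0.0185). Hrg, a histidine-rich glycoprotein that binds plasminogen and heparin, was at 809.8 ± 43.7 CPM in PBS and 724 ± 89.1 CPM in GH (log2 fold change -0.16, edgeR adjusted p = 0.325), and GH replicate 3 was the lowest at 560.3 CPM. The fetuins did not pass: Ahsg, fetuin-A, an inhibitor of calcification, had a log2 fold change of -0.09 and Fetub, fetuin-B, a protease inhibitor, of 0.07 (edgeR adjusted p = 0.536 and 0.645). Their count ratio nevertheless went from 19.2 to 17.3, a log2 difference of -0.15 without overlap (two-sided exact permutation p = 0.00216, adjusted 0.00649). Ahsg, Fetub, Hrg, Kng2 and Kng1 stand in a row on chromosome 16 with gaps of 18.9, 11.3, 24.2 and 28.4 kb. In this row 0 of 5 genes passed, and Masp1, 367 kb further along, rose.

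**Figure D4:**
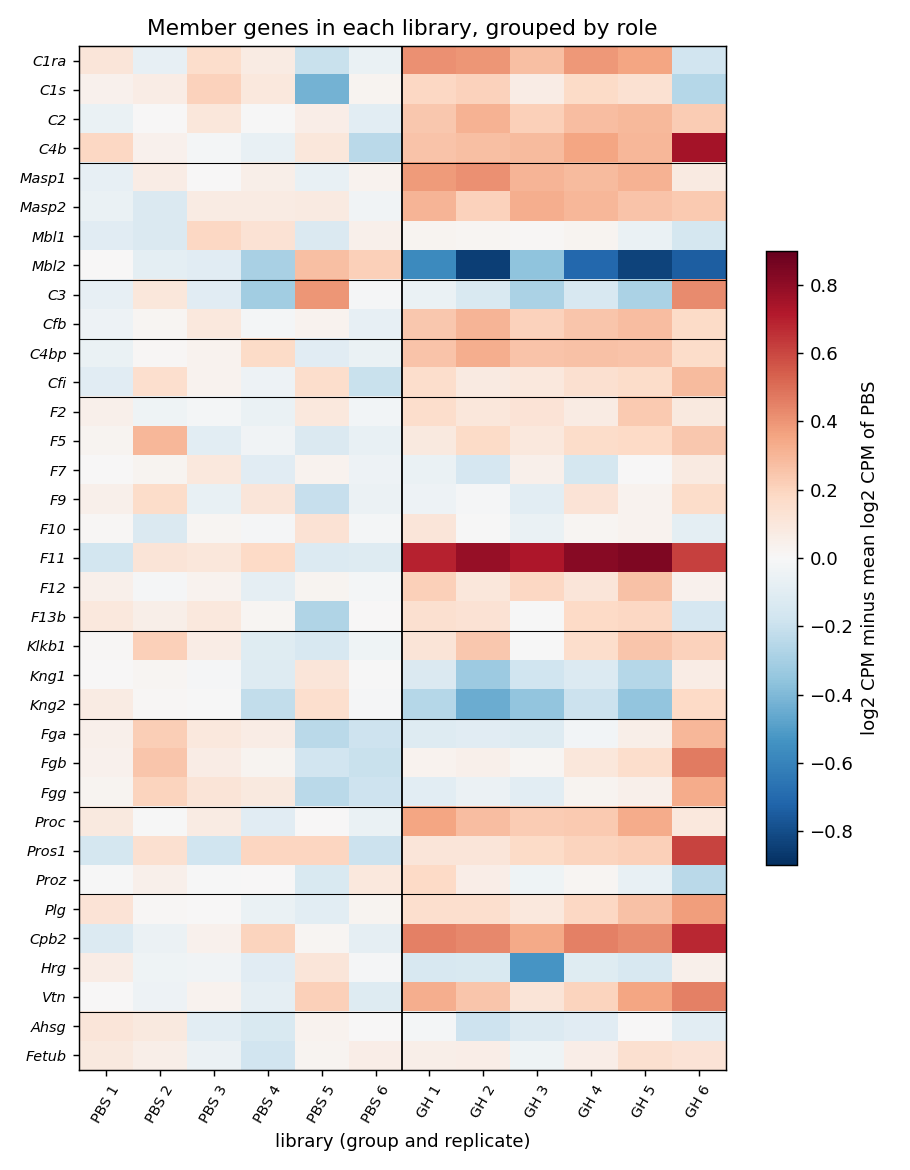
Log2 CPM of each gene minus the mean log2 CPM of the 6 PBS libraries, for the 12 libraries (columns) and 35 genes (lines, in the order of roles). F11, Cpb2 and Masp1 are above the PBS mean in all GH libraries and Mbl2 is below it, while GH replicate 6 departs from the other GH libraries for C4b, C3 and the fibrinogen genes.

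Levels of the 35 genes, compared per length as CPM per kb of exonic sequence, covered a wide range. Ahsg was the highest in PBS at 3354 CPM per kb, followed by Fgg at 2301, Fga at 2274, C3 at 1723 and Fgb at 1627. The SDs of Fgg and Fga overlapped, as did those of C3 and Fgb. At the other end stood Masp1 at 8.29, Pros1 at 21.9, F11 at 41.7 and F7 at 42.9 CPM per kb, with F11 and F7 within an SD of each other in PBS. The length counts all annotated exons of a gene together, 9833 bases for Masp1. Before division by length, Masp1 (81.5 CPM) and F7 (79.7 CPM) were close in PBS. In GH F11 was at 69.7 and F7 at 41.8 CPM per kb. Mbl2, at 221 CPM per kb, stood above Mbl1 at 74.3 in PBS and was also above it in GH, at 138 against 72.9. The spread between PBS libraries was smallest for F12 and largest for C3, with coefficients of variation of 3.18% and 17.1%.

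**Figure D5:**
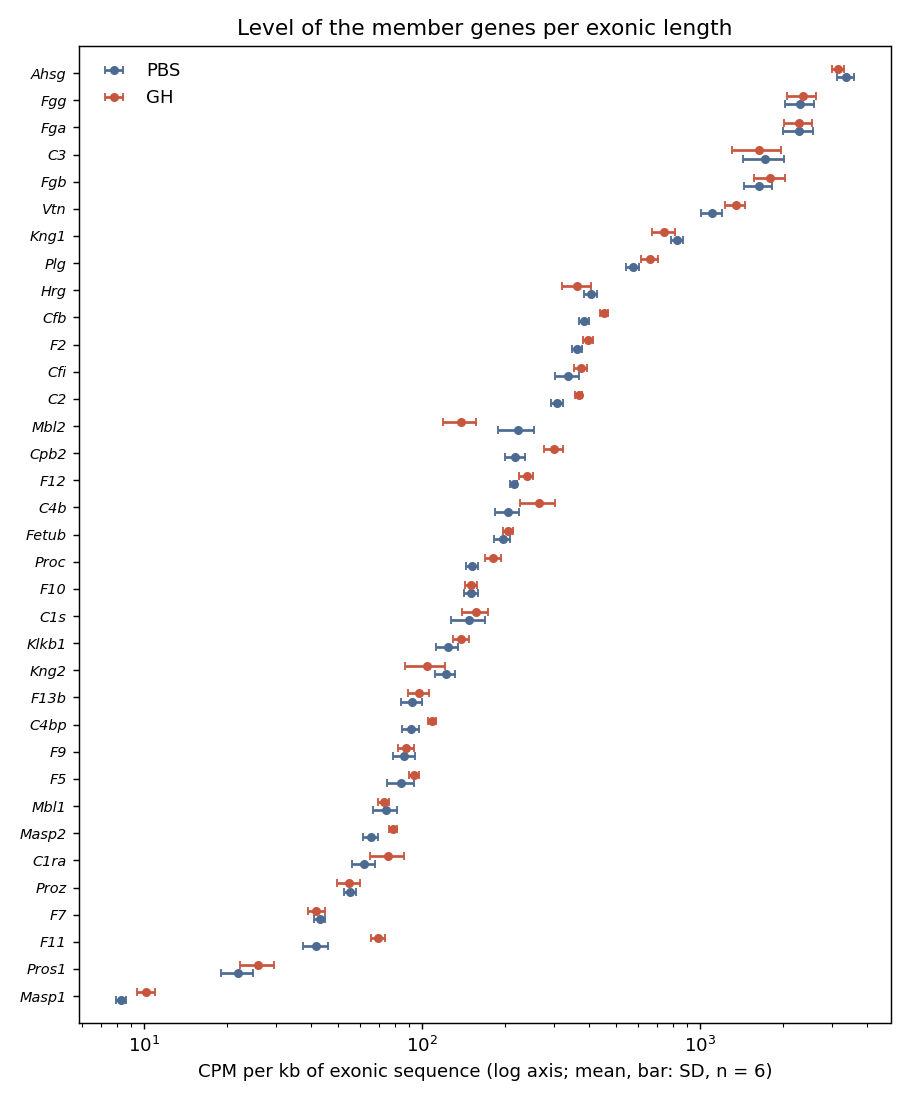
Mean CPM per kb of exonic sequence (all annotated exons together, log axis, bar SD, n = 6) of the 35 genes in PBS and GH, ordered by the PBS level. Levels run from Masp1 (8.29 in PBS) to Ahsg (3354 in PBS), and the PBS and GH points of F11 and of Mbl2 lie clearly apart.

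Other genes of the same pathways were counted over whole lists of pathway genes. Of 23 tested genes of complement activation and its regulators outside the set, 2 rose and 0 fell. They were Serping1, the C1 inhibitor, from 608 ± 46.2 to 766 ± 95.2 CPM (log2 fold change 0.33, edgeR adjusted p = 0.0331), and C1rl, a protease related to C1r, from 143 ± 12.6 to 185 ± 14.7 CPM (log2 fold change 0.37, adjusted p = 0.0101). C1qa, a chain of C1q made by macrophages, was at 31.9 ± 4.51 and 29.3 ± 3.60 CPM and did not pass (adjusted p = 0.576). Of the 7 genes of the terminal pathway, which forms the membrane attack complex, 5 rose (Hc, C6, C8a, C8b and C9), with a median log2 fold change of the 7 of 0.82.

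Among 19 tested genes of coagulation and its inhibitors outside the set, 1 rose and 0 fell: Serpina5, the protein C inhibitor, from 0.416 ± 0.160 to 2.76 ± 0.7003 CPM (log2 fold change 2.73, edgeR adjusted p = 1.79e-05). Serpinc1, antithrombin, was at 2029 ± 84.6 and 1902 ± 75.7 CPM (edgeR adjusted p = 0.458), and F8, whose product is the cofactor of factor IX, at 67.4 ± 12.3 and 62.3 ± 4.67 CPM (adjusted p = 0.611). Of 9 tested fibrinolysis genes outside the set 1 rose, A2m, a broad protease inhibitor that also binds plasmin, from 0.213 ± 0.176 to 7.87 ± 2.17 CPM (log2 fold change 5.20, edgeR adjusted p = 6.98e-06). The shares called, 8.70%, 5.26% and 11.1%, stand beside 4.79% of all tested genes, and that of the terminal genes is 71.4%.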

How the data were processed

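Total RNA of 12 liver samples was depleted of ribosomal RNA and made into stranded paired-end libraries, per the labels' protocols. The submitters' processing notes name STAR 2.4.0i and mm10. No source used here gives the counter, its annotation or how it handled strand and multi-mapped reads. The authors deposited raw counts of exonic reads per gene, without normalization. Overlapping genes and near-identical copies could therefore share or lose reads, and such partners are named beside the genes. Gene coordinates and exonic lengths came from GENCODE M21 (mm10), which held 36308 of the 38087 identifiers.

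Genes were filtered with filterByExpr (minimum count 10) and scaled by TMM in R 4.3.3 with edgeR 4.0.16. GH was compared with PBS in a robust quasi-likelihood fit over all 12 libraries with group as the only term, two-sided, with Benjamini-Hochberg adjustment over 14235 genes. Adjusted p-values of genes are from this fit, and CPM are after TMM scaling. The SE, the size of the log2 fold change over the root of its F statistic, ran from 0.06 to 0.13 for the 35 genes, and the common biological coefficient of variation was 0.168. Of all tested genes, 682 passed and 2702 had an unadjusted p under 0.05. Ratios of 9 pairs of genes were taken within each library with a pseudocount of 0.5 and compared by a two-sided exact permutation test with SciPy 1.17.1 in Python 3.11.15. The scripts were tested on simulated data. No pair of libraries within a group agreed within counting noise. Alternatives used DESeq2 1.42.0, limma 3.58.1, other scaling, no filter, a non-robust fit, the replicate number as a block, and each library left out.

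Members and lists were chosen with earlier results of these data known, so no p is given over a list. Every member is accounted for. Genes that passed are given with values and tests, and the others in short. Among other pathway genes, those of complement, coagulation and fibrinolysis that passed are named, with Serpinc1, Serping1, F8 and C1qa for their levels. Terminal pathway genes that passed are named without their values.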

Additional observations from a re-analysis of the deposited data

Results flagged for a closer look

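In each of the 35 genes the highest and lowest library of both groups were compared with the rest of their group by Dixon's test at its usual critical value. Chance gives about 1 in 20 groups, but the 70 groups checked came from the same 12 libraries and are not independent. Of the 70 groups 14 held a library that stood apart, and 10 of the 14 were GH replicate 6. That library was the highest of its group for C4b at 1946 CPM, C3 at 11746 CPM, Kng2 at 375 CPM, Pros1 at 135 CPM and Cpb2 at 562 CPM. It was also the highest for all fibrinogen chains, with 8366 CPM for Fga, 8522 CPM for Fgb and 6029 CPM for Fgg. For the C1 proteases it was the lowest, with 163 CPM for C1ra and 385 CPM for C1s.

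PBS replicate 5 was the lowest of its group for C1s at 342 CPM and for F13b at 194 CPM. F5 was highest in PBS replicate 2 at 768 CPM, and Hrg was lowest in GH replicate 3 at 560.3 CPM. What sets these libraries apart was not tested.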

How the results depend on the processing

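Masp1, Masp2, Mbl2, F11 and Cpb2 passed in all 12 fits with 1 library left out. Calls among the 35 genes ranged from 5 to 12 in these fits (higher 4 to 10, lower 1 to 2). The count was 5 when PBS replicate 6, GH replicate 2 or GH replicate 4 was left out, 6 for GH replicate 5, and 7 for PBS replicate 3, PBS replicate 4 or GH replicate 1. Without GH replicate 6 there were 12, with C1ra and Kng2 added and Vtn lost. Genes changed ranged from 434 to 854, and those higher from 193 to 410. Values near 0 changed sign for Mbl1 (-0.056 to 0.0095), C3 (-0.20 to 0.012), F9 (-0.016 to 0.057), F10 (-0.027 to 0.025), Fga (-0.068 to 0.042), Fgg (-0.042 to 0.065), Proz (-0.051 to 0.032) and the ratio of Masp1 to Masp2 (-0.0090 to 0.065).

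Scaling by library totals alone moved the median of all genes by -0.06 and gave 211 higher and 658 lower genes. There 4 of the 35 passed (3 higher: Masp1, F11 and Cpb2; lower: Mbl2), and F9 was at -0.035 and Fgg at -0.034. DESeq2 called 1057 genes (506 higher, 551 lower) and 13 of the 35, limma voom 11 with F10 at 0.00074, the fit with no filter 8, and the non-robust fit 10. Leaving out both GH replicate 6 and PBS replicate 5, an alternative chosen after seeing the data, gave 518 higher genes and 13 of the 35, of which 2 were lower, with F9 at -0.045, F10 at 0.042, Fgg at -0.090 and Proz at 0.0033.

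The labels do not say whether replicate numbers pair the libraries. Deviations from the group means of same-numbered libraries correlated from -0.22 to 0.21, above 0.1 in 2 of 6 pairs. Of the 6 PBS libraries 0 correlated best with their own number. Such correlations cannot decide whether same-numbered libraries shared a batch. With the replicate number as a block 391 genes passed (180 higher, 211 lower) and 4 of the 35 (3 higher), F10 was at 0.00049, and 0 of the 9 pair ratios passed in place of 4. Their log2 differences did not move under the block (-0.14 for Fga/Fgb, 0.11 for Fgb/Fgg, 0.66 for Mbl1/Mbl2 and -0.15 for Ahsg/Fetub). All 4 sat at 0.03125, the smallest p that sign flips of 6 pairs can give (adjusted 0.0703), and 4 ratios at that p cannot pass after adjustment over 9, so this says nothing about stability. Adjusted p-values of genes such as Vtn and C4bp lie close to the threshold. With 1 library left out, Vtn did not pass in 10 and C4bp in 9 of the 12 fits. Their log2 fold changes stayed between 0.25 and 0.33 for Vtn and between 0.23 and 0.29 for C4bp.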
